A study of Homo sapiens with 24 samples.

Results

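Kinesins are motor proteins that use ATP to move along microtubules or to take their ends apart, and a subset of them builds the spindle, moves chromosomes and completes cell division. KIF20A, KIF20B and KIF23 belong to one family and act late in division, at the central spindle and in cytokinesis, whereas KIF11 and KIF15 keep the spindle poles apart, CENPE, KIF2C and KIF18A act on chromosomes and microtubule ends, and KIF4A and KIF14 act with the midzone protein PRC1. In cycling cells, the mRNAs of these motors are known to accumulate as cells approach mitosis and to fall after it. The 10 genes KIF20A, KIF20B, KIF23, KIF11, KIF4A, KIF2C, KIF14, KIF15, KIF18A and CENPE were taken by symbol from all 4 expression tables, and the question asked of them was whether a change of KIF20A was its own or shared with the other motors. All 10 were listed in every table and passed the minimum level of the tests, among 19283 genes listed for Hs578T, 18248 for HCC70, 60651 for the sgRNA experiment and 23792 for the vector experiment.

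RNA-Seq was performed on 24 libraries of established triple-negative breast cancer (TNBC) lines, with 3 biological replicates in each of 8 groups. Breast cancer stem-like cells (BCSCs), sorted as CD24-CD44+ and ALDH+, were set against non-BCSCs lacking both markers, in unmodified Hs578T and in unmodified HCC70 cells. MDA-MB-231 cells carrying a control sgRNA (sgCtrl) were set against MDA-MB-231 cells carrying KIF20A sgRNA #1 (KIF20A sg1, labelled as knockdown), both infected with lentivirus and selected in puromycin, so that the depletion rests on a single guide. MDA-MB-231 cells with empty vector (EV) were set against libraries labelled KIF20A overexpression (KIF20A OE).

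Between 24681218 and 33715701 reads were recovered from the values of each sorted library, 41424338 to 51018667 from those of the sgRNA libraries and 15971297 to 22182293 from those of the vector libraries, and each kinesin had between 568 and 21537 reads in a library. Each comparison lay within 1 labelled batch, and cell line and batch cannot be told apart between Hs578T and HCC70. Hs578T libraries showed the mesenchymal marker VIM at 3661 to 4016 TPM and the epithelial marker CDH1 at up to 0.0591 TPM, whereas HCC70 libraries had VIM at 4.56 to 6.65 TPM and CDH1 at 460 to 576 TPM. Not all listed markers followed. Of the mesenchymal list, ANXA1 was at 536 to 651 TPM in Hs578T and 1425 to 1733 TPM in HCC70. S100A4 was at 102 to 169 and 203 to 293 TPM, and MSN overlapped between the lines. Of the epithelial list, KRT18 overlapped, at 302 to 407 and 324 to 474 TPM. Of the sorting markers, the aldehyde dehydrogenase ALDH1A3 was listed at 280 to 296 TPM in Hs578T non-BCSCs and 701 to 709 TPM in BCSCs. In HCC70 its values were 84.6 to 91.8 and 90.6 to 105 TPM, which overlapped. The aldehyde dehydrogenase ALDH1A1 did not overlap in HCC70, at 327 to 337 TPM in non-BCSCs and 357 to 370 TPM in BCSCs. CD24 was listed in HCC70 at 828 to 912 TPM in non-BCSCs and 667 to 725 TPM in BCSCs. CD44 overlapped between the fractions of both lines (549 to 591 TPM in Hs578T and 95.5 to 118 TPM in HCC70), as did CD24 in Hs578T. The summed level of 5 listed fibroblast and endothelial markers was 632 to 708 TPM in Hs578T non-BCSCs and 474 to 501 TPM in BCSCs. Its members differed. LUM (360 to 411 and 225 to 230 TPM), DCN and PECAM1 were lower in BCSCs, whereas PDGFRA (192 to 209 and 207 to 223 TPM) and VWF overlapped. The part of these markers in the kinesin values was not tested. The libraries labelled KIF20A OE went against their cell line label. In EV, CD44 was found at 788, 615 and 523 CPM, whereas the libraries labelled KIF20A OE held 0.125, 0.316 and 1.23 CPM. The summed level of 12 mesenchymal and MDA-MB-231 markers was 9935 to 11405 CPM in EV, against 897 to 1398 CPM under the KIF20A OE label. In these bulk samples, a smaller share of cells expressing a gene and less of its RNA per cell cannot be told apart.

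KIF20A lies on chromosome 5 of GRCh38 from 138178719 to 138187723 on the plus strand. Of its 3852 exon bases, 132 lie opposite exons of BRD8 and 74 opposite exons of CDC23, both transcribed from the minus strand. Exons of KIF23 share 231 of 6576 bases with KIF23-AS1, those of KIF4A share 77 of 4573 with PDZD11 and those of KIF2C share 175 of 3646 with a long noncoding RNA, all on the opposite strand. The libraries were stranded, but whether counting used the strand is not given in the sources used here. Since the kinesins moved together in the sorted cells, their promoters were searched on both strands for CCAAT, the letters of the CCAAT box bound by NF-Y, and for TTTGAA, a form of the cell cycle homology region known from genes of late cell cycle. In the RefSeq window of 250 bases before to 50 after the start, CCAAT was found in 7 of the 10 promoters, against 35.7% of all 27305 promoters, and TTTGAA in 7 of 10, against 15.4%. Both CCAAT and either TTTGAA or TTCGAA were present in 6 of 10, against 6.58% of all promoters.

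The 150 bases before the RefSeq start are shown 5′ to 3′ (GRCh38.p14, plus strand) for KIF20A, its relative KIF20B, and KIF11 and KIF4A as examples that hold both motifs, with matches in capitals. A CCAAT on the reverse strand reads as ATTGG here. The second motif is spelled as above where it lies on the plus strand, and in KIF11, where it lies on the reverse strand, it reads as TTCAAA. None of the 4 windows, at chr5:138178962-138179111, chr10:89701440-89701589, chr10:92592980-92593129 and chrX:70289954-70290103, met an exon of GENCODE 44. The windows of KIF20A and KIF11 lie past the GENCODE starts of these genes, at 138178719 and 92574105, so RefSeq and GENCODE differ there.
KIF20A: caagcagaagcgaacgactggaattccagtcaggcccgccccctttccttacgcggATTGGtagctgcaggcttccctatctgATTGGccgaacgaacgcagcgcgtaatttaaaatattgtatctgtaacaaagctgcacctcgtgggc
KIF20B: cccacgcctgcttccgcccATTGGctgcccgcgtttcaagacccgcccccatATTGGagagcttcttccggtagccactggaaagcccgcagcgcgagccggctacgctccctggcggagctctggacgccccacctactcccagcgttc
KIF11: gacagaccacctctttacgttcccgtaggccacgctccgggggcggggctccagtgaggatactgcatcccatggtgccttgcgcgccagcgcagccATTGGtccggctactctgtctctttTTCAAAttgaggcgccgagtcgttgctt
KIF4A: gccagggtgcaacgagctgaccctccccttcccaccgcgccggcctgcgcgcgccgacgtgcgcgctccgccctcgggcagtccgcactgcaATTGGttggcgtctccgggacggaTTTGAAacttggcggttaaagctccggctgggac
KIF20A and KIF20B each held CCAAT at 2 places on the reverse strand, starting 94 and 67 bases before the start in KIF20A and 131 and 98 bases before it in KIF20B. KIF11 and KIF4A held 1 CCAAT each, followed toward the start by TTTGAA, on the reverse strand in KIF11. No TTTGAA or TTCGAA was found in the KIF20A window, and KIF20B held TTTGAA after its start. Other spellings of the cell cycle homology region were not searched for, so its absence from KIF20A was not shown. These matches are letters in a window, and binding was not measured.

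In Hs578T, the kinesins rose together in BCSCs. By limma on log2(TPM + 1) with Benjamini-Hochberg adjustment over 13324 genes, 9 of the 10 were higher in BCSCs (adjusted p under 0.05), where 2.9% of all genes tested were, and KIF15 was not. All 10 kinesins had every BCSC library above every non-BCSC library, as did 12.0% of all genes. The study first drew KIF20A from the sorted libraries of both lines, then narrowed its candidates by RT-qPCR in sorted cells and by siRNA knockdown. The rise of KIF20A in these libraries is thus not independent evidence. KIF20A, which carries the chromosomal passenger complex to the central spindle in anaphase, was listed at 218, 218 and 214 TPM in non-BCSCs, against 295, 271 and 323 TPM in BCSCs. Its log2 fold change was 0.45 (SE 0.06, adjusted p = 0.0072), the highest of the 10 and position 218 from the top among all genes tested.

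Among its relatives in Hs578T, KIF20B, a plus-end motor of cytokinesis, was listed at 75.0, 75.6 and 65.4 TPM in non-BCSCs, against 93.5, 90.4 and 89.7 TPM in BCSCs, and KIF23, the motor of the centralspindlin complex, at 117, 114 and 109 TPM and 137, 135 and 143 TPM. Non-BCSC replicate 3 was the lowest library of its group for all 10 kinesins, and neither gene's groups overlapped. Their log2 fold changes were 0.34 for KIF20B (SE 0.06, adjusted p = 0.019) and 0.29 for KIF23 (SE 0.05, adjusted p = 0.012). CENPE, the kinetochore motor that brings chromosomes to the spindle equator, came closest to KIF20A, at 70.1, 69.0 and 60.9 TPM in non-BCSCs, against 87.5, 87.7 and 85.2 TPM in BCSCs, with a log2 fold change of 0.38 (SE 0.06, adjusted p = 0.011). KIF11, which pushes the spindle poles apart, rose by 0.32 on the log2 scale. KIF18A, which limits chromosome oscillation, rose by 0.27, KIF2C, a microtubule depolymerase that corrects attachments, and KIF14, a partner of PRC1 and citron kinase, both by 0.26, and KIF4A, which limits microtubule length in the midzone, by 0.21. KIF15, a motor that assists KIF11, had the smallest difference. It was listed at 35.6, 36.3 and 32.7 TPM in non-BCSCs, against 38.0, 36.8 and 40.2 TPM in BCSCs, groups that were apart by less than 1 TPM (log2 fold change 0.13, SE 0.06, adjusted p = 0.21). Its adjusted p was 0.041 by edgeR and 0.052 by DESeq2.

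The kinesins rose together in HCC70 BCSCs as well. Of the 10 kinesins, 9 were higher in BCSCs (adjusted p under 0.05), where 2.28% of the 13218 genes tested were, and all 10 had groups that did not overlap, as did 20.9% of all genes in this direction. KIF20A was listed at 68.7, 74.0 and 71.4 TPM in non-BCSCs, against 123, 123 and 129 TPM in BCSCs. Its level was 1.75 times as high in BCSCs (log2 fold change 0.80, SE 0.05, adjusted p = 0.0016), at position 29 among all genes. KIF2C was listed at 99.7, 115 and 115 TPM in non-BCSCs, against 182, 189 and 184 TPM in BCSCs, a log2 fold change of 0.75 (SE 0.07, adjusted p = 0.004). These 2 motors had the largest changes of the 10, and neither overlapped between groups.

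KIF4A followed in HCC70, at 60.8, 63.7 and 70.1 TPM in non-BCSCs, against 99.4, 95.1 and 100 TPM in BCSCs (log2 fold change 0.59, SE 0.06, adjusted p = 0.0063). CENPE rose by 0.55 on the log2 scale, KIF14 and KIF23 by 0.50, KIF18A by 0.49 and KIF20B by 0.40, with adjusted p from 0.0092 to 0.035. KIF11 was listed at 95.2, 82.7 and 92.0 TPM in non-BCSCs, against 111, 109 and 117 TPM in BCSCs, and lay closest to the threshold of the motors that passed (log2 fold change 0.32, SE 0.07, adjusted p = 0.049). KIF15, at 33.4, 29.6 and 33.0 TPM against 39.7, 38.1 and 41.5 TPM, had a log2 fold change of 0.31 (SE 0.07, adjusted p = 0.055). It passed by edgeR (adjusted p = 0.021) and DESeq2 (adjusted p = 0.0021). BCSC replicate 3 was the highest BCSC library for 9 of the 10 kinesins and BCSC replicate 2 the lowest for 8, so that part of the spread within the group was shared by the motors. The exact permutation test gave p = 0.1 for each of the 10 kinesins in both lines, two-sided, the smallest that 3 samples against 3 allow.

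**Figure D1:**
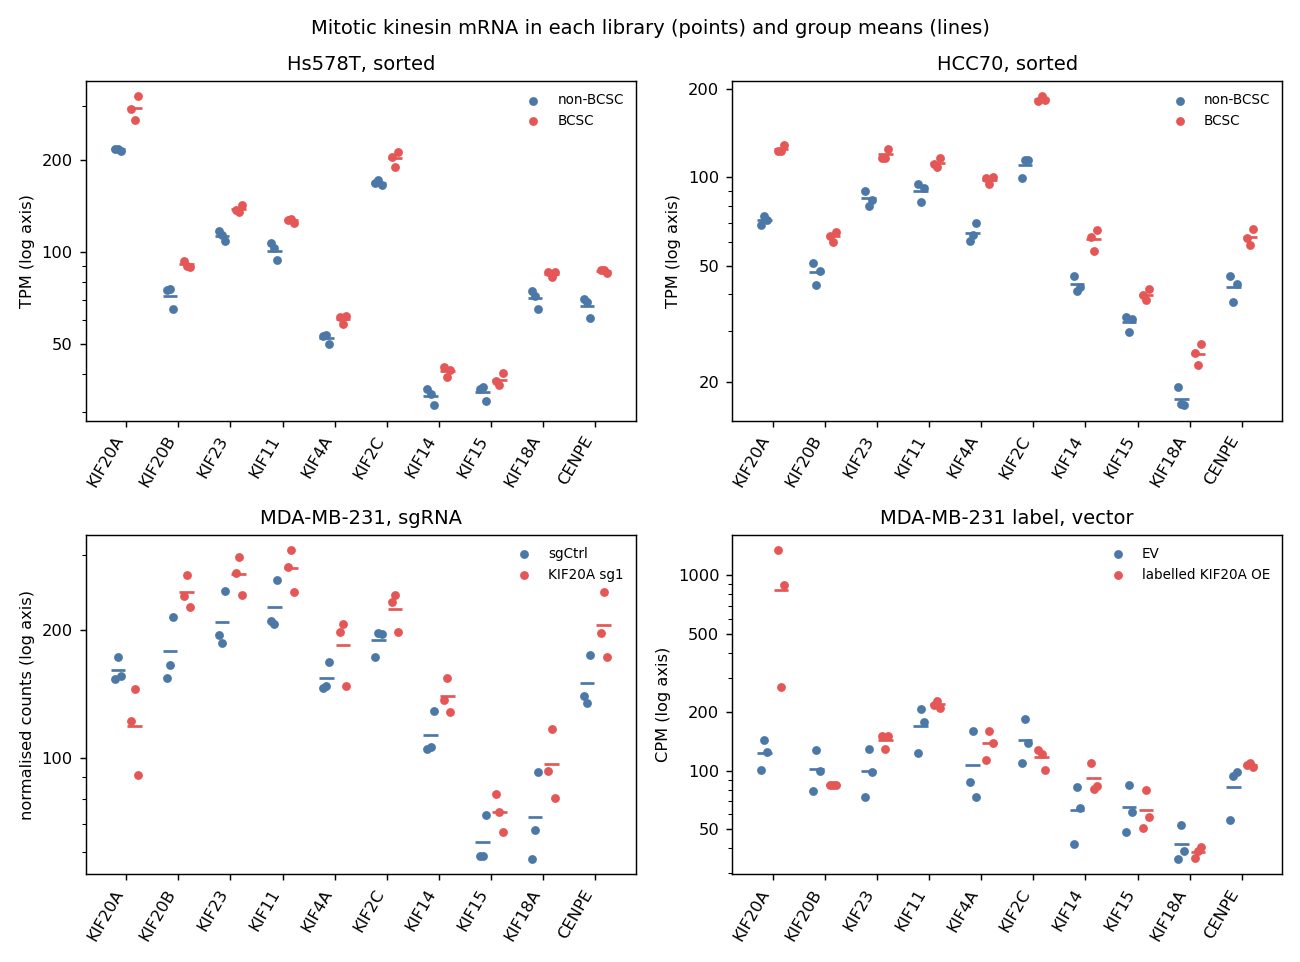
Level of each of the 10 kinesins in each library, in TPM for the sorted lines, normalised counts for the sgRNA libraries and CPM for the vector libraries (log axes), with points for the 3 libraries of a group and lines for group means. In both sorted lines all BCSC points lie above the non-BCSC points for every kinesin, whereas with KIF20A sg1 the mean of KIF20A alone lies below that of its control.

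The calls in the sorted lines were sensitive to single libraries, although the directions were not. Leaving out 1 library at a time, between 2 and 9 kinesins passed in Hs578T and between 2 and 9 in HCC70. The calls over all genes moved too, with 343 to 865 genes in Hs578T and 32 to 270 in HCC70, the fewest there without BCSC replicate 1. In Hs578T, 2 passed without BCSC replicate 1, 3 without non-BCSC replicate 2 and 5 without BCSC replicate 3. In HCC70, 2 passed without BCSC replicate 1, 4 without BCSC replicate 3, and 5 without BCSC replicate 2 or without non-BCSC replicate 2 or 3. KIF20A passed in every such fit in both lines, with adjusted p up to 0.0355 in Hs578T and up to 0.0204 in HCC70. CENPE also did in Hs578T (up to 0.0498) and KIF2C in HCC70 (up to 0.0367).

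To ask whether KIF20A changed more than another kinesin, the log2 ratio of each gene to KIF20A in the same library was tested. The same caution holds, since KIF20A had first been drawn from these libraries. In Hs578T, 4 of the 9 other kinesins rose less than KIF20A, namely KIF15 (difference in log2 fold change -0.31, adjusted p = 0.00397), KIF4A (-0.24, adjusted p = 0.0106), KIF2C (-0.19, adjusted p = 0.0127) and KIF14 (-0.19, adjusted p = 0.0483). The ratio to KIF20A differed for 86.3% of all genes. KIF23 (-0.16, adjusted p = 0.0501), KIF18A, KIF11, KIF20B and CENPE did not pass, and CENPE was the nearest to KIF20A, at -0.07 (SE 0.09, adjusted p = 0.514). In HCC70, 7 of 9 rose less than KIF20A, against a ratio that differed for 97.5% of all genes, and their differences ran from -0.49 for KIF15 to -0.20 for KIF4A. CENPE (-0.25, SE 0.11, adjusted p = 0.0701) and KIF2C (-0.05, SE 0.08, adjusted p = 0.556) did not pass. Leaving out 1 library at a time, 2 to 6 of the 9 differed in Hs578T, the lowest without non-BCSC replicate 2, and 4 to 8 in HCC70, the lowest without BCSC replicate 2.

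As a summary without a test, the log2 level of KIF20A exceeded the mean log2 level of the other 9 kinesins by 1.57, 1.59 and 1.68 in Hs578T non-BCSCs and by 1.77, 1.70 and 1.89 in BCSCs, and the groups did not overlap. In HCC70 it exceeded them by 0.35, 0.58 and 0.43 in non-BCSCs and by 0.75, 0.80 and 0.75 in BCSCs. The difference between the groups was 0.17 in Hs578T and 0.31 in HCC70. The kinesins other than KIF20A had a median log2 fold change of 0.27 in Hs578T and 0.50 in HCC70, against -0.01 and 0.02 over all genes.

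**Figure D2:**
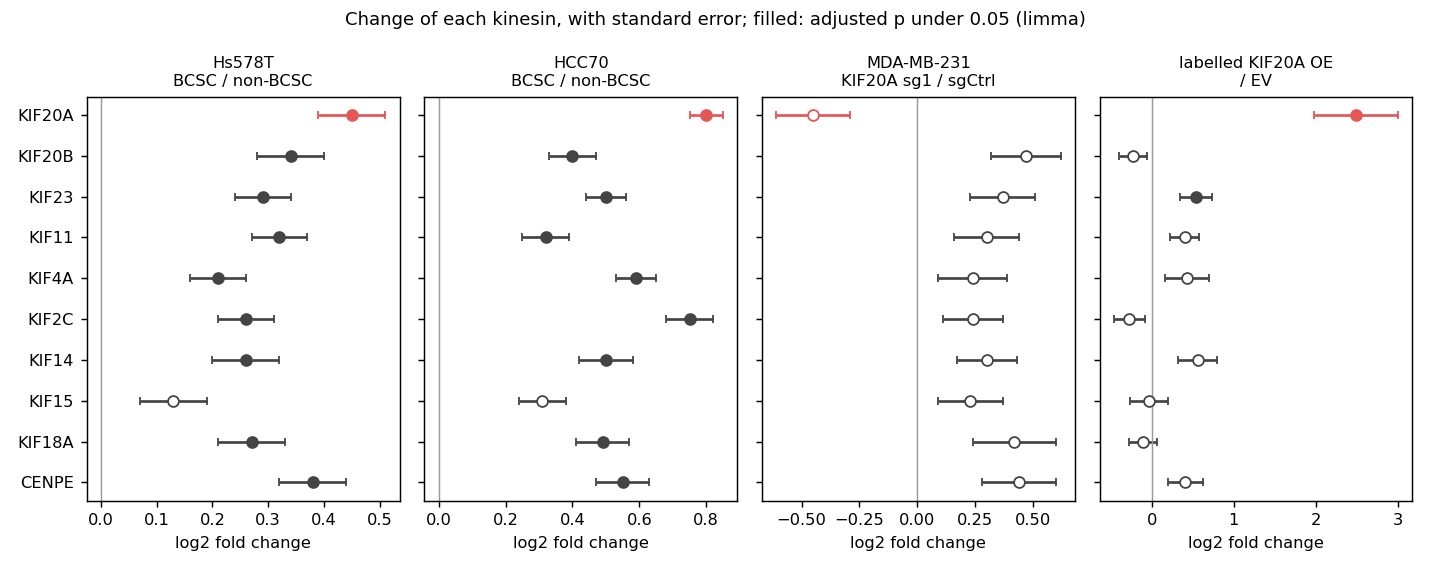
Log2 fold change of each kinesin in the 4 comparisons (points) with its standard error (bars), filled where the adjusted p of limma was under 0.05 and with KIF20A in red. The 10 motors lie on the same side of 0 in both sorted lines, whereas with KIF20A sg1 KIF20A lies at -0.45 and the other 9 at 0.23 to 0.47.

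TPM are divided by transcript length, so levels can be ordered between genes in the sorted lines. KIF20A was the most abundant of the 10 in Hs578T, at 217 ± 2.54 TPM (SD, n = 3) in non-BCSCs, rising to 297 ± 25.6 TPM in the sorted BCSCs, above KIF2C at 169 ± 2.95 and 203 ± 11.4 TPM without overlap. KIF15 and KIF14 were the least abundant there, at 34.8 ± 1.93 and 34.0 ± 2.14 TPM in non-BCSCs, values that overlapped. In HCC70 non-BCSCs KIF20A was only the 4th, at 71.4 ± 2.69 TPM, below KIF2C, KIF11 and KIF23 and overlapping KIF4A. In HCC70 BCSCs it was the 2nd, at 125 ± 3.48 TPM, below KIF2C at 185 ± 3.49 TPM and overlapping KIF23 at 120 ± 4.46 TPM. KIF18A was the least abundant in HCC70, at 17.6 ± 1.39 and 25.0 ± 1.98 TPM, whereas in Hs578T it lay in the middle of the order. KIF20A made up 22.9% to 26.7% of the summed TPM of the 10 kinesins in Hs578T libraries and 11.2% to 14.1% in HCC70 libraries. The tables of the lines were normalized separately, and levels were not tested between them.

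The change itself was compared between the lines in a model of the 12 sorted libraries, in which the interaction of line and fraction passed for 7.11% of 11668 genes. It passed for 3 of the 10 kinesins, all with the larger rise in HCC70. The difference in log2 fold change (HCC70 minus Hs578T) was 0.49 for KIF2C (SE 0.09, adjusted p = 0.008), 0.39 for KIF4A (SE 0.08, adjusted p = 0.016) and 0.35 for KIF20A (SE 0.08, adjusted p = 0.029). KIF2C passed in every fit that left out 1 library, KIF4A in all but the fit without Hs578T non-BCSC replicate 2 (adjusted p = 0.0529), whereas KIF20A passed in 4 of 12 (adjusted p 0.00913 to 0.0765), those without Hs578T BCSC replicate 3, HCC70 non-BCSC replicate 2 or 3, or HCC70 BCSC replicate 2. For KIF11 and KIF20B the estimated differences were 0.00 (95% interval -0.19 to 0.18) and 0.06 (-0.15 to 0.28). The remaining 5 lay between 0.17 and 0.24 and did not pass.

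The other genes of mitosis moved with the kinesins in the sorted cells. Of 52 other G2/M phase genes, 37 were higher in Hs578T BCSCs and 40 in HCC70 BCSCs, where 2.9% and 2.28% of all genes were, with median log2 fold changes of 0.29 and 0.51, close to the medians of the kinesins. Their summed level was 6474 to 6804 TPM in Hs578T non-BCSCs and 7974 to 8318 TPM in BCSCs, and 5401 to 5661 and 7431 to 7780 TPM in HCC70. Of 43 S phase genes, 0 passed in either direction in either line by limma, with medians of 0.01 and -0.04. At an unadjusted p under 0.05, 6 of them were higher and 1 lower in Hs578T, where 1196 and 1797 of all 13324 genes were. In HCC70, 2 were higher and 7 lower, where 2111 and 1023 of all 13218 genes were. By edgeR, 6 were higher in Hs578T and 4 lower in HCC70, where 12.4% and 5.41% of all genes were called in either direction. KIF20A stood near the top of the G2/M genes. In Hs578T, 3 of the 52 had a larger log2 fold change than KIF20A, NEK2, CCNB1 and FAM83D at 0.47, and in HCC70 1 did, the kinase PLK1 at 0.81. The ratio to KIF20A differed for 20 of the 52 in Hs578T and 38 in HCC70, in each case with the smaller rise in the other gene. The part that the shares of cells in G2 and mitosis had in these changes was not tested.

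**Figure D3:**
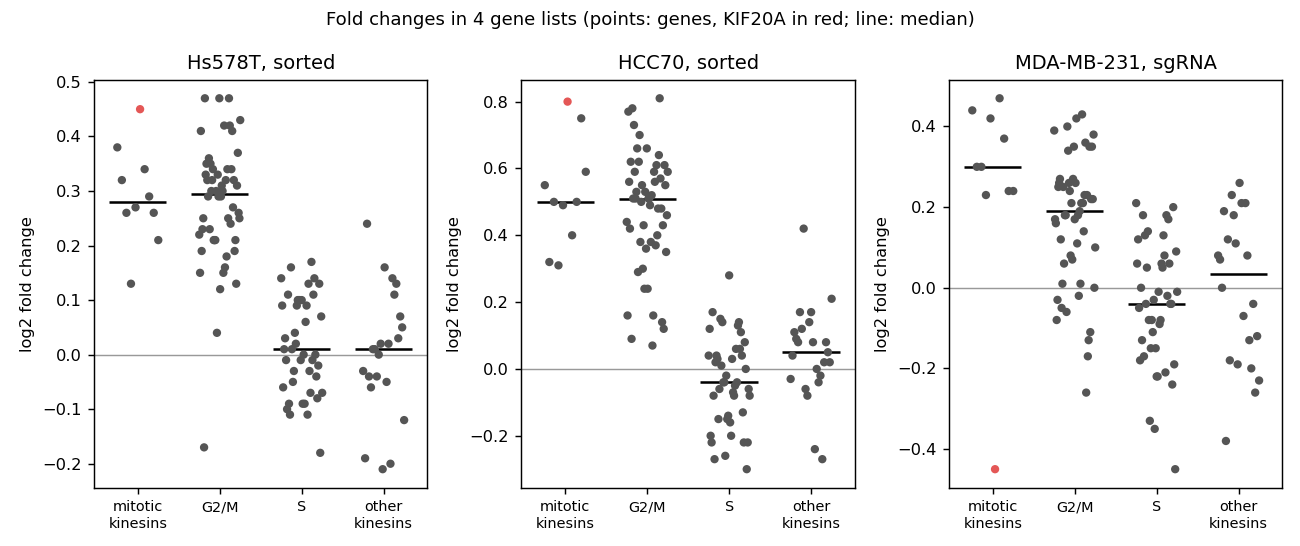
Log2 fold changes of the 10 mitotic kinesins, 52 G2/M genes (51 with sgRNA), 43 S phase genes and 22 or 23 transport and other kinesins (points, KIF20A in red; lines are medians) in 3 comparisons. Kinesins and G2/M genes share a similar range in the sorted lines, and with KIF20A sg1 KIF20A lies below all 51 G2/M genes.

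Of the partners that work with KIF20A and KIF23 at the midzone and in cytokinesis, 8 of 16 were higher in Hs578T BCSCs and 11 of 15 in HCC70 BCSCs, against the same 2.9% and 2.28% of all genes, which also stand behind the counts of the lists that follow. They included PLK1, which docks on KIF20A in anaphase (0.41 in Hs578T), CEP55, an abscission factor (0.40), and CDCA8, a subunit of the chromosomal passenger complex (0.66 in HCC70). Several of the midzone partners, PLK1 and CDCA8 among them, are also in the G2/M list, so the counts of these lists overlap. Kinesins outside mitosis formed a separate list. Of 22 transport and other kinesins tested in Hs578T, KIF16B was higher and KIF13B and KIFAP3 were lower, where 567 of all 13324 genes were lower. Of 23 in HCC70 only KIF21B passed, with a higher level in BCSCs. The medians were 0.01 in Hs578T and 0.05 in HCC70. Of 5 further kinesins of cell division, 0 passed by limma in Hs578T. There 4 were higher at an unadjusted p under 0.05, as were 1196 of all 13324 genes. By edgeR, which called 12.4% of all genes in either direction, 4 were higher as well. In HCC70, KIFC1 (0.50), KIF22 (0.47) and KIF18B (0.41) passed. Among 20 regulators of mitotic genes, FOXM1, an activator of G2/M genes, rose in both lines (0.27 and 0.53), and CDKN1A, an inhibitor of cyclin-dependent kinases, in Hs578T (0.30).

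The genes most like KIF20A over the 12 sorted libraries, by Pearson's r of log2(TPM + 1) centred within each line among 11667 genes, were ASNS (r = 0.992), KPNA2 (0.992), PSRC1 (0.991), CCNB1 (0.990), CDCA3 (0.987), TPX2, PLK1 and AURKA (all 0.985), CDC20 and FOXM1 (both 0.984). ASNS is the asparagine synthetase and KPNA2 a nuclear import factor, whereas CCNB1, PLK1, AURKA, TPX2 and CDC20 act in mitosis itself. Of the other kinesins, KIF2C came first, at position 28, followed by KIF23 and KIF4A at positions 40 and 42, and KIF11 was last (0.873). Values were centred within each line but not within each fraction, so the difference between BCSCs and non-BCSCs enters r. Libraries of a line also differed in depth, and r is given as a description.

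In MDA-MB-231, the gene under the guide, KIF20A, had a level of 153, 173 and 156 normalised counts with sgCtrl and of 122, 145 and 91.1 normalised counts with KIF20A sg1. Normalised counts are here gene counts divided by a size factor for each library, whose totals ran from 977393.6 to 1028621.4. They are thus near a per-million scale and are not numbers of reads. The 153 of KIF20A in sgCtrl replicate 1 came from 6975 recovered reads. All 3 KIF20A sg1 libraries lay below all 3 controls, as did 7.3% of the 12852 genes tested, and replicate 3 was the lowest. The mean was 0.743 times that of sgCtrl (log2 fold change -0.45, SE 0.16, 95% interval -0.80 to -0.10, adjusted p = 0.69), and no gene passed by limma, where 0.0% of genes were called higher. At an unadjusted p under 0.05, limma gave 293 genes higher and 606 lower and edgeR 972 in all, of which 0 passed adjustment in either, and DESeq2 called 11. The exact permutation test for KIF20A gave p = 0.1. These values are mRNA, and KIF20A protein was not measured in these libraries. The paper reports depletion of KIF20A by its sgRNAs in MDA-MB-231 cells, with immunoblots of the protein.

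The other 9 kinesins pointed the opposite way. Their log2 fold changes with KIF20A sg1 were all positive, from 0.23 for KIF15 to 0.47 for KIF20B with a median of 0.30. Over all 12852 genes, 6479 were positive and the median was 0.00. Of the 9 kinesins, 0 passed adjustment by limma (adjusted p 0.69 to 0.71), edgeR or DESeq2. At an unadjusted p under 0.05 by limma, 5 were higher, as were 293 of all 12852 genes. KIF20B was listed at 154, 165 and 215 normalised counts with sgCtrl and at 240, 269 and 227 with KIF20A sg1, and its groups did not overlap. KIF2C, at 173, 197 and 196 normalised counts against 233, 241 and 198, was the other kinesin without overlap, so that 2 of 9 were apart in this direction, where 5.73% of all genes were. KIF23, at 195, 186 and 247 normalised counts against 272, 297 and 241, overlapped through sgCtrl replicate 3. The same library was the highest of its group for 8 of the 10 kinesins, and KIF20A sg1 replicate 3 was the lowest of its group for all 10. Without sgCtrl replicate 3, 144 genes passed over the whole table, and 1 kinesin, KIF20B, among them (log2 fold change 0.61, adjusted p = 0.041).

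Relative to the other motors, KIF20A was lower in every KIF20A sg1 library. Its log2 level minus the mean of the other 9 was 0.28, 0.41 and -0.04 in the sgCtrl libraries and -0.53, -0.43 and -0.75 in the KIF20A sg1 libraries. Its share of the summed normalised counts of the 10 motors was 11.0%, 12.0% and 9.10% with sgCtrl and 6.59%, 7.04% and 5.69% with KIF20A sg1. The groups did not overlap in either measure, and KIF20A sg1 replicate 3, lowest in KIF20A itself, was also lowest here. The test of the ratio to KIF20A gave differences of 0.68 to 0.92 on the log2 scale, but 0 of 9 kinesins passed (adjusted p = 0.14 for each), as did 0.0% of all genes. At an unadjusted p under 0.05, all 9 kinesins and 4372 of 12851 genes had a ratio that differed. The change of KIF20A and those of the other 9 thus had opposite signs in the same libraries, and none passed adjustment over all genes.

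Of 51 other G2/M genes tested with the guide, 41 had a positive log2 fold change (median 0.19), 0 passed by limma or edgeR, 6 were higher at an unadjusted p under 0.05 (293 of all 12852 genes were), and 4 did not overlap between groups, where 5.73% of all genes were apart in this direction. KIF20A had a lower log2 fold change than all 51. The summed level of the G2/M genes was 11206, 11860 and 12885 normalised counts with sgCtrl and 14236, 15127 and 12204 with KIF20A sg1, groups that overlapped through KIF20A sg1 replicate 3. Of 43 S phase genes, 16 were positive (median -0.04). Of 15 midzone partners 11 were positive (median 0.18), and of 22 transport and other kinesins 11 (median 0.03). Over all 12852 genes, 6479 had a positive log2 fold change. The part that cell cycle phase had in the kinesin values was not tested.

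**Figure D4:**
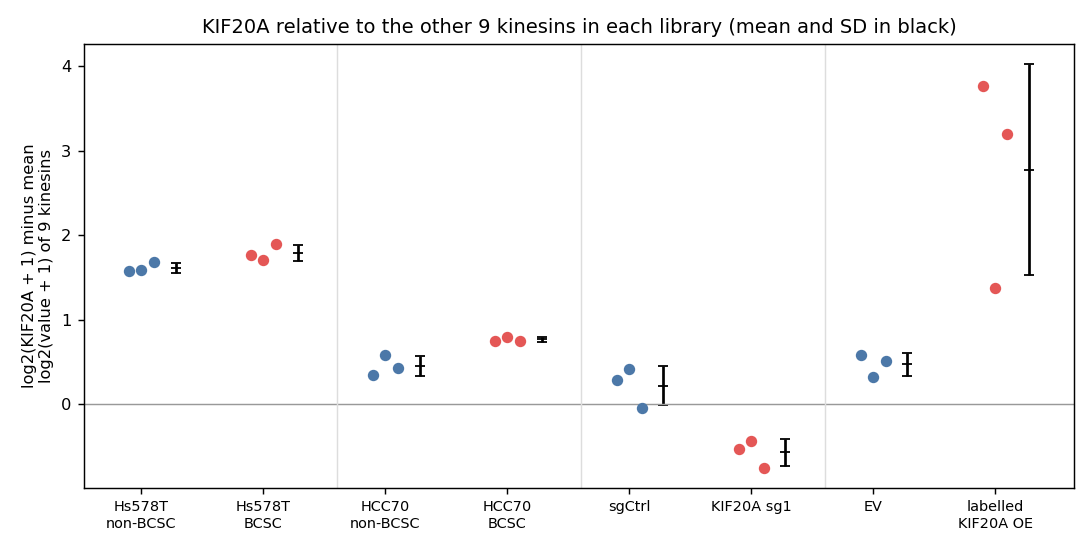
Log2 level of KIF20A minus the mean log2 level of the other 9 kinesins in each library (points), with the mean and SD of each group in black. The 3 KIF20A sg1 libraries lie at -0.75 to -0.43, below their controls, and the libraries labelled KIF20A OE spread from 1.37 to 3.76.

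In the vector experiment, the level of KIF20A was 101, 143 and 124 CPM with EV, whereas the libraries labelled KIF20A OE held 1348, 269 and 896 CPM. Every library labelled KIF20A OE lay above every EV library, and replicate 2 was the lowest of its group. The log2 fold change was 2.49 (SE 0.51, adjusted p = 0.0025). Reads of a transgene and of the endogenous gene cannot be told apart in these counts, and the difference between the groups and that between cell backgrounds cannot be told apart either. KIF20A took 57.5%, 20.7% and 48.0% of the summed CPM of the 10 kinesins under the KIF20A OE label, against 13.4%, 11.3% and 12.7% in EV.

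The other kinesins differed far less between EV and the libraries labelled KIF20A OE. Of the 10 motors, 2 were higher (KIF20A and KIF23) and 0 lower by limma, where 46.2% of all 15265 genes were higher and 23.4% lower. At an unadjusted p under 0.05 by limma, 0 were lower, where 3732 of all genes were. By edgeR, 1 was higher and 3 were lower, where 65.1% of all genes were called in either direction. The groups were apart in the higher direction for 4 of 10 (KIF20A, KIF23, KIF11 and CENPE) and in the lower direction for 0, against 48.9% and 25.2% of all genes. KIF23 was listed at 73.6, 129 and 98.0 CPM in EV, against 150, 129 and 150 CPM under the KIF20A OE label, and the groups were apart by less than 1 CPM (log2 fold change 0.54, SE 0.19, adjusted p = 0.035). KIF20B, of the same family, was at 78.6, 127 and 99.4 CPM in EV, and its values under the KIF20A OE label, 84.7, 84.9 and 84.5 CPM, lay within the range of EV. EV replicate 2 was the highest EV library for 9 of the 10 kinesins and EV replicate 1 the lowest for 9, and the G2/M genes followed the same order, with sums of 6090, 9238 and 7618 CPM.

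Which motors passed in this experiment depended on scaling and on single libraries, although rescaling turned no sign. The median log2 fold change over all genes was 0.37, and the kinesins other than KIF20A had a median of 0.40. After rescaling by the median of ratios, which brought the median of all genes to 0.03, KIF20A remained higher (2.13, adjusted p = 0.0067), KIF23 no longer passed (0.18, adjusted p = 0.426), and KIF20B (-0.60, adjusted p = 0.0114), KIF2C (-0.64, adjusted p = 0.0144) and KIF18A (-0.47, adjusted p = 0.0359) were lower. In that fit 66.8% of all genes passed in either direction. The ratio to KIF20A, which does not depend on scaling apart from the pseudocount, differed for 9 of 9 kinesins, with differences of -2.76 to -1.93 (adjusted p 0.0034 to 0.02), as it did for 76.8% of all genes. Between 8 and 9 of them passed when 1 library was left out. Of the 10 motors, 5 passed without EV replicate 2, and KIF20A alone passed without any 1 of the libraries labelled KIF20A OE. Over all genes, 9576 to 10364 passed when 1 library was left out. By limma, 36 of 43 S phase genes were higher in these libraries (median 1.11), and 25 of 51 other G2/M genes were higher and 6 lower (median 0.45), beside 46.2% of all genes higher and 23.4% lower. By edgeR, 25 S phase genes were higher and 1 lower, and 15 G2/M genes were higher and 9 lower, beside 65.1% of all genes called in either direction.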

How the data were processed

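Polyadenylated RNA of 24 libraries (8 groups of 3 biological replicates) was sequenced as stranded paired-end libraries. Per the submitters' processing notes, GRCh38, HISAT2 2.0.5 and featureCounts 1.5.0-p3 were used, and which step used which table is not given in the sources used here. The authors deposited TPM for Hs578T and HCC70, CPM for the vector experiment, and for the sgRNA experiment a signal of gene counts divided by size factors. In the CPM and signal tables, and up to a common divisor in the TPM tables, 100.0% of genes came out as whole reads (within 0.01 of a read, or 2e-07 of the value where that is more, and within at most 0.05 of a read in the TPM tables), so the recovered TPM depths are lower bounds. Values were read as log2(value + 1) and genes whose mean over the 6 libraries reached 1 were tested with limma 3.58.1 (trend, two-sided, Benjamini-Hochberg adjustment over all genes tested, threshold 0.05), with no covariate. Fold changes on this scale understate those of low genes.

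The test of the ratio to KIF20A used limma on the log2 ratio in each library. Its prior variance was taken from ratios of neighbouring gene pairs, a choice made after simulated data showed too many false calls with a prior from the ratios to KIF20A themselves. The interaction of line and fraction used the 12 sorted libraries. Alternatives were a pseudocount of 0.1, a minimum mean of 10 or none, median-of-ratios scaling, a replicate block, edgeR 4.0.16 (quasi-likelihood) and DESeq2 1.42.0 on recovered reads, and leaving out each library. These count tests called 1646 and 1418 genes in Hs578T, 715 and 1167 in HCC70, 0 and 11 with the guide, and 9931 and 10185 in the vector experiment. Same-numbered libraries did not deviate together (correlations of -0.161 to 0.185), so the numbers were not taken as pairs. The members and lists were chosen with earlier results of these data known. The text names the 10 kinesins, at most 5 called genes of a list with the largest changes, and the 10 genes most correlated with KIF20A. Locations are from GENCODE 44 and promoters from RefSeq GRCh38.p14. R 4.3.3 and Python 3.11.15 were used. No column of per-sample values was left unused.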

Additional observations from a re-analysis of the deposited data

Results flagged for a closer look

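Of the 10 kinesins, 3 changed more between BCSCs and non-BCSCs in HCC70 than in Hs578T by the interaction term of limma. The difference in log2 fold change was 0.49 for KIF2C, 0.39 for KIF4A and 0.35 for KIF20A, and in all 3 the groups did not overlap within either line. The call for KIF20A held in only 4 of the 12 fits that left out 1 library (adjusted p 0.00913 to 0.0765), that for KIF4A was lost without Hs578T non-BCSC replicate 2 (adjusted p = 0.0529), and that for KIF2C held in all 12. Line and batch cannot be told apart in this comparison. No group held 4 or more libraries, so single outlying libraries were not tested for.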

How the results depend on the processing

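All 10 kinesins kept a positive change in both sorted lines under every alternative run. In Hs578T, edgeR called 1646 genes in place of 953, and the replicate block left 669 genes called, 5 kinesins among them. Leaving out 1 library there gave 343 to 865 genes, 2 to 9 kinesins and 2 to 6 ratios to KIF20A. In HCC70, genes called were 374 as reported, 178 with no minimum (5 kinesins), 233 by median of ratios, 128 with the replicate block (6 kinesins), 715 by edgeR, 1167 by DESeq2 and 32 to 270 without 1 library (2 to 9 kinesins, 4 to 8 ratios), with 32 genes without BCSC replicate 1. With KIF20A sg1, DESeq2 called 11 genes, and leaving out 1 library gave 0 to 144 genes and 0 to 1 kinesin, with 144 without sgCtrl replicate 3 and 5 without KIF20A sg1 replicate 2. In the vector experiment, 4 kinesins passed by median of ratios, edgeR and DESeq2 alike, and 1 to 5 without 1 library, 5 without EV replicate 2 and 1 without any single library labelled KIF20A OE. Over all genes of this experiment, 10148, 9931 and 10185 passed by these methods, and 9576 to 10364 without 1 library. There KIF15 ran from -0.2188 to 0.1761 (0.1017 and 0.0121 without the libraries labelled KIF20A OE 1 and 3) and KIF18A from -0.2257 to 0.0537. The interaction for KIF20A was 0.3521 (adjusted p = 0.0716, limma) with the replicate block, where KIF4A (adjusted p = 0.0509) did not pass either and KIF2C (adjusted p = 0.0326) did, and 0.2903 to 0.4146 without 1 library, that for KIF20B ran from -0.00127 to 0.1307, and that for KIF11 from -0.06017 to 0.04936, with positive values of 0.0003875, 0.005895, 0.04012, 0.01553, 0.005798 and 0.01977. The cause of these changes was not tested. Replicate numbers were shared between groups, but the libraries shared only a number, although each vector library correlated best with its own number (0.0142 to 0.0577). The gene-pair prior of the ratio test was chosen after the data were seen, and a prior from the ratios to KIF20A themselves gave 6 kinesins in Hs578T, 8 in HCC70, 0 with the guide and 9 in the vector experiment, in place of 4, 7, 0 and 9.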
